A study of Homo sapiens with 4 samples.

Results

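Peaks at gene starts were examined in a list of HuR-bound RNA regions from MDA-MB-231 cells. The members were the peaks whose HOMER annotation began with promoter-TSS or with 5′-UTR, and they numbered 636 of 14149 peaks in all, or 4.50%. Of these, 463 were promoter peaks and 173 were 5′-UTR peaks. The host gene of a peak was the gene of the RefSeq transcript named in its annotation. The 636 peaks fell in 548 host genes and, after overlapping peaks were merged, in 575 loci.

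The list came from RNA immunoprecipitation followed by sequencing (RIP-seq) in MDA-MB-231 cells, an established triple-negative human breast cancer line. RNA was pulled down from cell lysate with a mouse anti-HuR antibody in 2 samples and with mouse IgG as the control in 2 samples. The deposited table lists peaks only and gives neither the value of each sample nor that of IgG, so no HuR against IgG difference, no spread between replicates and no library depth could be given. All results below describe the listed peaks, and no test between samples was possible. The list held no expression levels, so the cell line could not be checked against its markers. Of a mesenchymal and basal-like list, 2 of 6 genes (AXL and CD44) had a peak, and of a luminal and hormone receptor list 0 of 8, beside 15.4% of all protein-coding genes.

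HuR, the product of ELAVL1, is an RNA-binding protein known for binding U-rich and AU-rich stretches, above all in 3′-UTRs and introns, and for keeping its target mRNAs stable. The 5′-UTR is the part of an mRNA before the start codon, where ribosomes are loaded and scan. A promoter is the DNA around a transcription start site. Most of it is not part of the mRNA, so a promoter peak in an RNA experiment is a peak placed near an annotated start, on whatever transcript the tags came from. Human promoters are often GC-rich and often drive a second transcript in the opposite direction, such as an antisense or divergent long non-coding RNA (lncRNA).

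The sequences below were chosen to show the range of what lay under these peaks. Each is the stretch of 30 bases with the most T within the listed peak (the one nearest the 5′ end where several tied), read from hg38 on the strand of the named transcript, 5′ to 3′, with T for U and with runs of at least 5 T in capitals. In the 5′-UTR exons of the top 4 lines and of FOSL2 and CDKN1B, T runs were present. The RAB8A, RBMS1 and PTMA lines lay in 3′-UTRs of genes beside or around the annotated host. The last 5 lines, from AXL, CNN3, FGF5 and FOXQ1, had no such run.
MBNL1, 5′-UTR exon 2, chr3:152300107-152300136, + strand: gcTTTTTTTTTTTggttgttgctcTTTTTT
CCNI, 5′-UTR exon 1, chr4:77075883-77075912, − strand: ctttcTTTTTTTTTTTTTcttttcttttct
MARCKS, 5′-UTR exon 1, chr6:113857528-113857557, + strand: cTTTTTgatctcttcgactaaaaTTTTTTT
GTF2A1, 5′-UTR exon 1, host GTF2A1-AS1, chr14:81220562-81220591, − strand: TTTTTTTTTTTTTggttttgTTTTTatctt
FOSL2, 5′-UTR exon 1, chr2:28393334-28393363, + strand: tcctaatcTTTTTTTTaatttccaaTTTTT
CDKN1B, 5′-UTR exon 1, chr12:12717770-12717799, + strand: gcgctttgttttgttcggttttgTTTTTTT
PTMA, 3′-UTR exon 5, host MIR1244, chr2:231713114-231713143, + strand: tttgtaTTTTTTatttacattttatatttt
RAB8A, 3′-UTR exon 8, host HSH2D, chr19:16133155-16133184, + strand: acgttctttctagctgagaTTTTTaTTTTT
RBMS1, 3′-UTR exon 14, host LINC02478, chr2:160272744-160272773, − strand: TTTTTgTTTTTgTTTTTgtttcaTTTTTTT
AXL, 3′-UTR exon 20, host HNRNPUL1, chr19:41261540-41261569, + strand: tctccttcttagctatcattgcttcctcct
CNN3, 5′-UTR exon 1, host CNN3-DT, chr1:94927076-94927105, − strand: ggtgcttcgcagcggagctcgaggctctgt
FGF5, coding exon 1, chr4:80266826-80266855, + strand: tgagcttgtccttcctcctcctcctcttct
FOXQ1, 5′-UTR exon 1, 5′-UTR peak, chr6:1312620-1312649, + strand: tcgccatccccttccctggcaccagcttct
FOXQ1, 5′-UTR exon 1, promoter peak, chr6:1312346-1312375, + strand: tgctgcttctctccggcaggaaagccttct

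Peak scores at gene starts were close to those of the whole list. The score is HOMER's own value for a peak, and it is not an enrichment over IgG. The median was 32.9 for the 636 peaks (quartiles 17.9 and 84.5), 32.8 for promoter peaks (17.4 and 83.5) and 34.3 for 5′-UTR peaks (20.6 and 87.9). The median of all listed peaks was 34.0, that of 2062 3′-UTR peaks was 65.5 and that of 909 first-intron peaks was 31.6. The 636 peaks were 4.50% of the list and carried 4.07% of its summed score. All scores under 100 lay on whole multiples of 0.2447, within the rounding of the score and 0.02% of its value. If 1 step is 1 tag, which the authors do not state, the lowest score of 8.32 stands for 34 tags and the median of the 636 peaks for 134.5 tags. The intervals given below for single scores are exact Poisson 95% intervals on that reading.

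**Figure D1:**
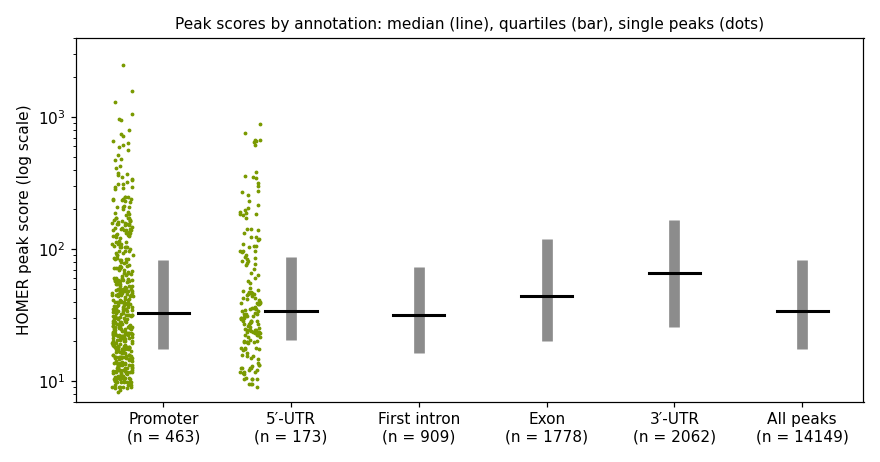
HOMER peak scores on a log axis for promoter, 5′-UTR, first-intron, exon, 3′-UTR and all peaks, with the median as a line, the quartiles as a bar and each promoter and 5′-UTR peak as a dot. The promoter and 5′-UTR medians of 32.8 and 34.3 sat near that of all peaks, 34.0, and below that of 3′-UTR peaks, 65.5, while single promoter peaks reached 2506.9.

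Most host genes were protein-coding. Of the 636 peaks, 497 were at the starts of 437 protein-coding genes, 95 at 78 lncRNA genes, 22 at 17 miRNA genes, 5 at 5 snoRNA genes, 3 at small Cajal body RNA genes and 4 at transcribed pseudogenes. For 10 peaks the named transcript was not matched to a RefSeq gene. The gene column of the list, which gives the nearest start, named another gene than the annotated transcript for 174 peaks, or 27.4%. Chromosome 1 held 91 of the peaks, or 5.87% of its 1550 listed peaks, and chromosome 21 held 2, or 1.75% of 114.

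The start label of a peak and the exon beside it often belonged to different genes. The peaks were 347 bp long. At the peak centre, 325 of 636 peaks, or 51.1% (Wilson 95% interval 47.2 to 54.97%), lay in an exon of a canonical transcript of any gene. At 173 bp behind the centre, counted along the peak's own strand and so at its edge, 521 did, or 81.9% (78.7 to 84.7%). At 173 bp forward it was 129, or 20.3% (17.3 to 23.6%). In steps of 20 bp from −400 to 400 bp, the share was highest at −180 bp, also with 81.9%.

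**Figure D2:**
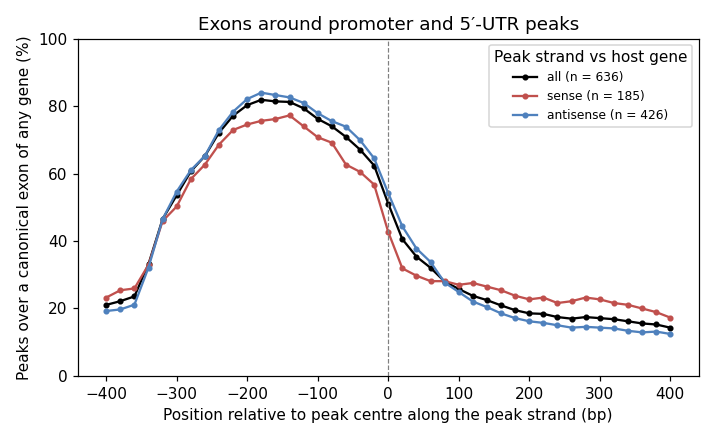
Share of the 636 peaks lying over an exon of any canonical transcript (vertical axis, percent) at positions from −400 to 400 bp along the strand of the peak (horizontal axis, 0 is the centre), for all peaks and for the 185 sense and 426 antisense peaks. All 3 lines were highest behind the centre, and the share over all peaks fell from 81.9% at −180 bp to 51.1% at the centre.

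At that position behind the centre, by canonical transcripts, 323 peaks were over an exon of their host gene, 198 over an exon of another gene but not of the host and 115 over no canonical exon. By any transcript of the host, 62.2% of the 611 peaks with a placed host were over a host exon. Some of the 198 or the 115 were thus on a non-canonical exon of the host. The 198 include all 10 peaks whose transcript was not matched to a RefSeq gene, for which another gene was not established. In 28 of the 323 the exon was shared with another gene. Promoter and 5′-UTR peaks differed in this, in part by their labels, since a 5′-UTR label needs an annotated exon and a promoter label only a nearby start. The centre itself was in a host exon for 77.5% of 5′-UTR peaks and 21.6% of promoter peaks. Among 463 promoter peaks, 183 were over a host exon and 192, or 41.5%, over an exon of another gene. Among 173 5′-UTR peaks, 140, or 80.9%, were over a host exon and 6 over an exon of another gene. The other gene of the 192 promoter peaks was met in its 5′-UTR in 91 cases, in its coding sequence in 70, in its 3′-UTR in 14 and in a non-coding exon in 17. It lay on the opposite strand of the host in 147 of the 174 cases with a placed host.

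The share also differed by the kind of host. An exon of another gene was behind 75 of 95 peaks at lncRNA starts and 17 of 22 at miRNA starts, against 88 of 497 at protein-coding starts, where 317 had a host exon. Since the TruSeq RNA v2 kit does not mark the strand of the RNA, reads of a gene and of its antisense or divergent partner cannot be told apart in these libraries.

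The strand of a peak followed its position. The strand compared here is the one the list gives, relative to the host gene. As the libraries do not mark the strand of the RNA, sense and antisense here do not tell which strand was transcribed. Of 443 promoter peaks with a placed host, 147, or 33.2% (Wilson 95% interval 29.0 to 37.7%), were on the strand of the host (sense). Of 168 5′-UTR peaks, 38, or 22.6% (16.9 to 29.5%), were. Sense peaks made up 53.2% (52.4 to 54.1%) of 13784 peaks of the whole list, 59.0% (56.8 to 61.1%) of 3′-UTR peaks and 51.3% (48.0 to 54.5%) of first-intron peaks. When each promoter peak was instead set against the gene whose exon lay behind it, 51.2% (46.2 to 56.2%, n = 375) were sense, and this comparison was chosen after the data were seen. For 5′-UTR peaks the same change gave 21.9% (n = 146).

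Positions were then measured from the canonical start of the host gene. Promoter peaks over a host exon were centred at a median of +285.5 bp if sense (n = 56) and of +49 bp if antisense (n = 127). All 56 of these sense peaks were downstream of the start, but this follows from the grouping. A sense peak with a host exon behind its centre must lie downstream of the start, while an antisense one need not. The gap between these medians can thus come in part from the grouping, and how much was not tested. Promoter peaks over an exon of another gene were centred at a median of −563 bp if sense (n = 55) and −564 bp if antisense (n = 119), and 112 of the 119 antisense ones were upstream. 5′-UTR peaks over a host exon were centred at a median of +381 bp if sense (n = 29) and +237 bp if antisense (n = 111). The same limit of the grouping by host exon applies to these medians. In all, 375 of 443 promoter peaks and 110 of 168 5′-UTR peaks were within 1000 bp of the canonical start. Of 133 5′-UTR peaks centred in the 5′-UTR of the canonical transcript of the host, 93 were in exon 1 and 40 in a later exon.

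**Figure D3:**
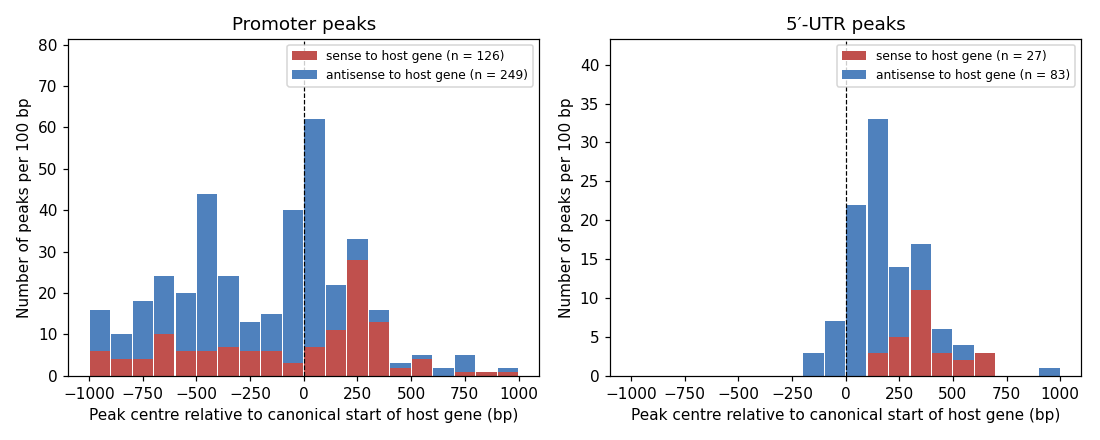
Number of peaks per 100 bp (vertical axis) by the distance of the peak centre from the canonical start of the host gene (horizontal axis, bp, positive downstream), for 375 promoter peaks (left) and 110 5′-UTR peaks (right) in the plotted range, stacked by strand. Antisense promoter peaks had 55 in the bin from 0 to 100 bp and 38 in the bin from −500 to −400 bp, and sense promoter peaks had most, 28, from 200 to 300 bp.

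Partners on the other strand were counted for peaks at gene starts alone, so these shares were not compared with other listed peaks. Within 1000 bp, 323 of 636 peaks, or 50.8% (46.9 to 54.7%), had a listed peak of the opposite strand, and it lay behind the peak along its own strand in 312 of the 323. All 80 partners of antisense 5′-UTR peaks were behind. In 59 genes, a + and a − member lay within 400 bp of each other. The + peak was the right-hand one in all 59, with a median offset of 284 bp, and 36 pairs had scores within 2-fold. The Poisson intervals of the 2 scores overlapped in 23 pairs.

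The 10 host genes with the highest peaks were HNRNPUL1, TMED2-DT, MIR1244, SNORD1C, ARF4-AS1, MARCKS, CSNK1A1, FGF5, TM4SF1-AS1 and a transcript at the MTPN locus that was not matched to a RefSeq gene. The exon behind the highest peak was one of the host for 4 of them. For the others, the highest peak lay on an exon of a neighbouring or surrounding gene, or on no canonical exon.

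Among protein-coding genes, MARCKS, a membrane-bound substrate of protein kinase C, had the highest 5′-UTR peak. It scored 887.8 at chr6:113857527-113857873 on the + strand, and it lay in exon 1, where the T runs printed above were found. The best of its 2 other peaks, both in the 3′-UTR, scored 1216.2. CSNK1A1, a kinase of the Wnt pathway, had 3 promoter peaks, with 803.6 on the − strand, 726.6 on the + strand and 284.8 at a start further inside the gene. The first 2 were centred 336 bp apart and both had exon 1 behind them. The best of its other peaks scored 953.2, in the 3′-UTR. FGF5, a fibroblast growth factor, had a 5′-UTR peak of 761.8 (735 to 789) at chr4:80266605-80266951. It was on the − strand, opposite to the gene, and its edge was in coding exon 1. The best other peak of the gene scored 1339.6.

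MBNL1, a splicing regulator, had a pair of 5′-UTR peaks in exon 2 of 10 with scores of 654.6 (630.0 to 680) on the + strand and 618.9 (595 to 643) on the − strand. These intervals overlapped. The exon is far inside the gene, 31108 bp and 30873 bp from the canonical start. CCNI, a cyclin, had a similar pair of 361.4 and 275.8 in exon 1, and TOR1AIP2, a nuclear envelope protein, one of 387.1 and 352.4 about exon 3. CCNI and TOR1AIP2 were named after their values were seen.

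The highest of the 636 peaks, at rank 22 of the whole list, was labelled for HNRNPUL1 but was on another gene. It scored 2506.9 (2459 to 2556) at chr19:41261371-41261717 on the + strand, and its centre and its edge were both in exon 20 of 20 of AXL, in the 3′-UTR. AXL is a receptor tyrosine kinase with high levels in many triple-negative lines. Relative to the canonical start of HNRNPUL1, an RNA-binding protein gene, it was centred at −2828 bp, and the best of its 3 other peaks scored 277.8. Of the 5 highest-scoring genes with at least 3 peaks whose best peak was at the start, HNRNPUL1 and MIR1244 had it on an exon of another gene. The MTPN locus transcript had it on an exon of MTPN. The 4 peaks of MIR1244 were pooled from chromosomes 2, 5 and 12 and all were start peaks, so its best peak could not lie elsewhere.

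Labels and exons were also apart at other loci. The 3 highest peaks of the MTPN locus transcript, 672.2, 671.7 and 665.4, carried a 5′-UTR label but lay on the 3′-UTR exon 4 of 4 of MTPN, which encodes the actin-capping regulator myotrophin. Its remaining start peak, 299.8, was on the 5′-UTR exon 1 of MTPN. The gene column named MTPN for these peaks. Since the transcript was not matched, whether it belongs to a gene apart from MTPN was not settled. HSH2D, an adaptor of blood cells, had promoter peaks of 237.1 and 213.1 that lay on the last exon of RAB8A, a vesicle-trafficking GTPase. The RAB8A stretch printed above was under both. LINC02478 had peaks of 125.3 and 103.0 on the 3′-UTR of RBMS1, an RNA-binding protein gene. HSH2D and LINC02478 were named after their values were seen.

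Peaks at 5 further lncRNA starts lay over exon 1 of the divergent coding gene. At TMED2-DT, the lncRNA opposite TMED2, the scores were 1592.1 on the + strand and 599.8 on the − strand. The exon behind both was annotated to TMED2-DT as well as to TMED2, so both were among the 6 peaks at lncRNA starts with a host exon. At ARF4-AS1 the scores were 956.8 and 485.5 over the 5′-UTR exon 1 of ARF4, a GTPase of the Golgi. At TM4SF1-AS1 the peak of 749.6 was over coding exon 1 of TM4SF1, a membrane protein gene. The peaks at CCDC18-AS1 (560.9) and CNN3-DT (520.0) were over 5′-UTR exon 1 of DR1 and CNN3. These last 2 genes were chosen after their values were seen.

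Peaks at small RNA starts mostly lay on exons of other genes, with 17 of 22 at miRNA starts, 2 of 5 at snoRNA starts and 3 of 3 at small Cajal body RNA starts. The promoter peaks of MIR1244 on chromosome 2 scored 1292.8 on the − strand and 968.6 on the + strand, and both edges were in the 3′-UTR part of the last exon of PTMA, which encodes prothymosin alpha. MIR1244 has several copies, and its other 2 peaks scored 26.2 over the pseudogene PTMAP4 and 14.2 over PTMAP2. Reads from PTMA and its near-identical pseudogenes may be split between them, so these 4 scores are uncertain. The peak at SNORD1C scored 1056.2 at chr17:76557895-76558241 and lay on a non-canonical exon of SNHG16. Its focus ratio, HOMER's fraction for how the tags were placed around the centre, was 0.981.

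Other small RNA peaks on exons of other genes were named after their values were seen. SNORA86 had a peak of 656.6 at the last exon of ITGB1, the integrin beta-1 gene. SCARNA7 had peaks of 151.7 and 142.4 at coding exon 12 of KPNA4, a nuclear import receptor. MIR579 had a peak of 165.2 at coding exon 11 of ZFR. The pair at MIR16-1, 17.4 and 15.2, was on exon 6 of the lncRNA DLEU2.

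Focus ratios above 0.9 were more frequent in promoter peaks than in the list. There were 49 such promoter peaks, or 10.6%, and 5 such 5′-UTR peaks, or 2.89%, against 241, or 1.70%, of all listed peaks and 146, or 16.1%, of first-intron peaks. Examples with high scores, named after their values were seen, were ITGB1 (477.4, focus ratio 0.971), ARL6IP1 (611.8, 0.933) and YWHAZ (412.8, 0.932). No test was run on this difference, since peaks are not replicates.

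Some promoter peaks were at starts inside genes. There were 34 promoter peaks in 31 genes more than 1000 bp downstream of the canonical start, and 21 of them were over a host exon 173 bp back, of which 19 were coding. Their median score was 32.3. PRKAR1A, a regulatory subunit of protein kinase A, had the highest, 340.9 at coding exon 2 of 11. CELF1, an RNA-binding protein of GU-rich elements, had 154.4 at coding exon 4 of 15. PRKAR1A was named after its values were seen.

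Within genes, the peak at the start was usually not the strongest. Of 548 host genes, 367, or 67.0% (62.9 to 70.8%), had a further listed peak outside the promoter and 5′-UTR, with a median of 6 such peaks. The best start peak was lower than the best other peak in 320 of the 367 genes and higher in 45. The median log2 difference was −1.35 (95% order-statistic interval −1.52 to −1.22, SD 1.504, n = 367 genes). Since 468 of the host genes had 1 start peak, this sets mostly 1 peak against the best of several, and against the median of the other peaks of the gene the log2 difference was −0.57. The best other peak was in the 3′-UTR in 140 genes, in an exon in 98 and in an intron in 94. For comparison, the best 3′-UTR peak of 969 genes was above their best other peak by a median of 0.19 on the log2 scale (0.14 to 0.23).

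The exon behind the peak split the host genes. Where it was an exon of the host, 268 of 291 genes, or 92.1% (88.4 to 94.7%), had a further peak, and the median log2 difference was −1.44 (−1.55 to −1.23). Where it was an exon of another gene, 35 of 162 genes, or 21.6% (15.96 to 28.6%), had one, and the median log2 difference was 0.01 (−0.38 to 0.54, n = 35), with the start peak higher in 18 and lower in 17. The 35 include hosts not matched to a RefSeq gene, for which another gene was not established. The median itself was the value of one of them, the MTPN locus transcript. The groups differ in the kind of host. Protein-coding starts held 317 of the 323 peaks over a host exon, against 88 of the 198 over an exon of another gene. The part of this in the difference was not tested. GPBP1L1 and MDM2 were the 2 highest genes with a host exon whose start peak was the best of at least 3 peaks. GPBP1L1, a paralogue of a GC-rich promoter-binding protein gene, had 217.6 and 133.6 at 5′-UTR exon 3 of 13 and 49.9 at the promoter, against 184.8 for its best other peak. MDM2, a ubiquitin ligase, had 157.1 (145 to 170) and 58.2 over exon 1, against 142.9 in an intron.

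**Figure D4:**
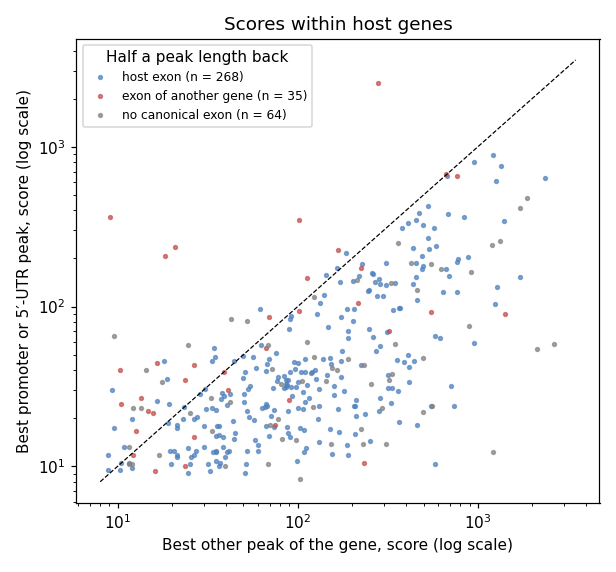
Score of the best promoter or 5′-UTR peak (vertical axis, log scale) against the score of the best other peak of the same gene (horizontal axis, log scale) for 367 host genes, coloured by the exon 173 bp back from the start peak, with equal scores on the dashed line. In 320 genes the start peak was lower, while genes with an exon of another gene (n = 35) lay on both sides of the line.

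Peaks at the starts of genes of interest to the study and of known gene groups were then counted. Of 3343 genes with a peak anywhere, 548, or 16.4% (15.2 to 17.7%), had one at the start, and of 20052 protein-coding genes in RefSeq, 3083, or 15.4%, had any peak. FOXQ1, a forkhead transcription factor with 1 exon and the HuR target that the study follows, had 4 peaks. Its 5′-UTR peak scored 30.3 (25.2 to 36.2) at chr6:1312413-1312759 on the + strand and its promoter peak 27.4 (22.6 to 33.0) at chr6:1312253-1312599 on the − strand. Both were over the 5′-UTR of exon 1, their intervals overlapped, and the highest of its 2 3′-UTR peaks scored 30.6. All of these were below the list median of 34.0. MSI2, a Musashi RNA-binding protein gene, had 19 peaks, of which 1 was a promoter peak with 40.1 (34.2 to 46.8) in an intron, against 164.7 for its best other peak. Of the 14 genes the study discusses, 5 had any peak and only these 2 had one at the start.

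Among 4 genes whose 5′-UTR is described as bound by HuR, all 4 had a peak, but 1 had it at the start. This was CDKN1B, the cell cycle inhibitor p27, whose only peak in the list was a 5′-UTR peak of 35.7 (30.2 to 42.0) on the − strand. IGF1R, HIF1A and XIAP had peaks elsewhere. Among 34 immediate early genes, 6 had a peak and 1 had it at the start: FOSL2, an AP-1 subunit, whose only peak was a 5′-UTR peak of 35.7. Both printed stretches, of CDKN1B and of FOSL2, held T runs.

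Of 102 genes with a 5′-terminal oligopyrimidine tract, mostly ribosomal protein genes whose translation is set through the 5′-UTR, 5 had any peak and 0 had one at the start. Of 5 stress response genes with upstream reading frames, 1 had a peak and 0 had it at the start. Of 14 heat shock genes, 2 had a peak, and the cochaperone DNAJB4 had a 5′-UTR peak of 85.6 (76.9 to 95.1) and a promoter peak of 48.2 that was over exon 1 of FUBP1. Of 15 AU-rich element binding proteins, 5 had a peak and CELF1 had one at the start. Of 15 growth factor and receptor genes, 6 had a peak and 0 was the annotated gene of one at the start. The promoter peak of TGFB2-AS1 (109.6), however, had the 5′-UTR exon 1 of TGFB2, one of the 15, behind it. CD44, a hyaluronan receptor, had a 5′-UTR peak of 189.9 (177 to 204) over exon 1, against 769.6 for the best of its 12 other peaks. None of 94 histone genes and none of 18 non-coding RNA genes was the annotated gene of a peak, although the SNORD1C peak lay on an exon of SNHG16, one of the 18. With 0 to 2 genes at the start in each list, no list was set apart from the 16.4% of all genes with a peak.

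The peaks were chosen by labels at gene starts, so a base content near that of starts follows in part from the choice. The median GC content was 66.0% over the 611 peaks with a placed host, against 38.3% in the whole list and 37.5% in 3′-UTR peaks. It was 65.7% in windows of the same length centred on 19970 canonical protein-coding starts and 68.9% at those of 437 host genes. Peaks with GC of at least 55% and an observed to expected CpG ratio of at least 0.65 are referred to as CpG island-like. These were 65.1% (61.3 to 68.8%) of the 611 peaks, 63.5% (62.8 to 64.2%) of all protein-coding starts, 87.9% (84.5 to 90.6%) of the starts of 437 protein-coding host genes and 7.10% of the whole list. The interval of the 611 peaks overlapped that of all starts and lay below that of host gene starts. The detailed annotation of the list named a CpG island for 0 of the 636 peaks. It gives each peak a single label, and these peaks were chosen by a start label. This 0 is therefore no measure of how many of them lie in CpG islands.

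Runs of T were searched as TTTTT on the sense strand of the host gene alone, and longer runs count once per window. They were present in 22.3% (18.7 to 26.5%) of promoter peaks and in 41.7% (34.5 to 49.2%) of 5′-UTR peaks. Windows at all protein-coding starts had them in 18.9% (18.4 to 19.5%) and windows at the starts of host genes in 18.1% (14.8 to 21.96%). In 3′-UTR peaks the share was 78.5% and in the whole list 68.5%. The interval of promoter peaks overlapped that of starts, while that of 5′-UTR peaks lay above it and below 3′-UTR peaks.

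The AU-rich pentamer ATTTA, which cannot overlap a run of 5 T and was searched on the same strand, gave the same order. It was present in 12.2% (9.46 to 15.6%) of promoter peaks and in 22.02% (16.4 to 28.9%) of 5′-UTR peaks. All protein-coding starts had it in 11.5% (11.1 to 11.9%), host gene starts in 6.41% (4.47 to 9.10%) and 3′-UTR peaks in 52.6%. The 5′-UTR peaks were also less often at the canonical start than promoter peaks, with 65.5% against 84.7% within 1000 bp, and the part of this in the difference was not tested. A match to either motif is a description of the window and not a bound site.

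**Figure D5:**
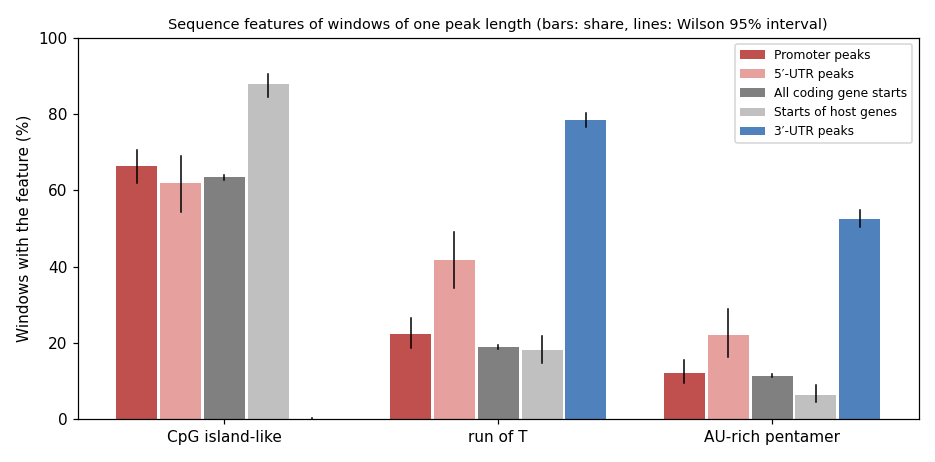
Share of windows (vertical axis, percent) that were CpG island-like, held a run of at least 5 T or held the AU-rich pentamer, for promoter peaks, 5′-UTR peaks, windows of the same length at 19970 protein-coding starts and at 437 host gene starts, and 3′-UTR peaks, with Wilson 95% intervals as lines. On the strand of the host, promoter peaks sat near gene starts for T runs (22.3% against 18.9%), and 5′-UTR peaks between starts and 3′-UTR peaks (41.7% against 78.5%).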

How the data were processed

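Per the labels, RIP-seq libraries from MDA-MB-231 cells were made with the TruSeq RNA v2 kit without poly(A) selection, 2 with anti-HuR antibody and 2 with IgG. The authors aligned reads with STAR to hg38 and called peaks with HOMER, and although their methods give ANNOVAR as the annotation tool, the header of the list is a HOMER annotation command. Versions, peak settings, the threshold of the abundance criterion for listing a peak and any pooling of replicates are not given in the sources used here. The deposited list gives for each peak a score, which is HOMER's own value, and a focus ratio, which is a fraction per the file headers. It has 3 columns of measurements, of no single sample, and the depth of the libraries is unknown from it. How tags were shifted before peaks were placed changes the coordinates and so the annotation.

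Peaks labelled promoter-TSS or 5′-UTR were taken, and the promoter label reached from −989 to 930 bp of a start in the list. Their RefSeq transcripts were matched to RefSeq genes (GRCh38.p14) for 626 of 636 peaks and to GENCODE 44 canonical transcripts, through older symbols where needed, for 611. Exons were looked up at the centre and at 173 bp either way. Motifs, GC and CpG were counted in the 347 bp windows. Shares have Wilson 95% intervals, single scores exact Poisson 95% intervals on steps of 0.2447, and both cover counting error only. Of 11121 scores under 100, 100.0% were whole multiples of this step within rounding and 0.02% of the score, against a median of 43.5% for the other steps tried.

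The planned count test of HuR against IgG, its replicate block and the runs without a replicate were not made, since the list holds no counts per sample. Genes named were the 10 hosts with the highest peak, listed genes with a member (at most 6 per list), the 5 highest with at least 3 peaks whose best peak was a member, and up to 6 with a pair within 400 bp. The members and lists were chosen with earlier results of these data known. Python 3.11.15, numpy 2.4.6, scipy 1.17.1, pandas 2.3.3, pysam 0.24.0, intervaltree 3.1.0 and matplotlib 3.10.9 were used, and functions were tested on simulated data. The values of 1 host gene among the starts inside genes are not reported here.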

Additional observations from a re-analysis of the deposited data

How the results depend on the processing

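Of 42 alternatives tried for 10 results, 27 left the value within its interval (a count of peaks within 1.5 times), 15 moved it and 0 reversed it. Leaving out peaks under the list median of 34.0 kept 313 peaks, with a median score of 85.6, 38.6% of promoter peaks sense and ATTTA in 18.1%. Without host genes with a start of the other strand within 1000 bp, 38.6% of promoter peaks were sense and 79.5% of host genes had a further peak, which was 81.6% when the gene column named the host. Set against the gene whose exon was 173 bp back, 51.2% of promoter peaks were sense, an alternative added after the data were seen. At 100 bp back, 76.3% of peaks were over a canonical exon of any gene, against 81.9% at 173 bp back. At 173 bp back, 62.2% of the 611 peaks with a placed host were over an exon of any transcript of the host. Its counterpart is the 323 peaks over a canonical exon of the host, so it is not a drop from 81.9%. Against the median of the other peaks, the log2 difference within genes was −0.57. GC and CpG of the window called 64.2% of all 636 peaks island-like. The value set beside it was 0 by the detailed annotation, which gives a peak a single label and does not measure CpG islands here. Longer motifs, TTTTTTT and TATTTAT, were in 8.67% and 1.47% of windows, and TTTTT was in 23.6% of windows moved 173 bp back. The causes of these shifts were not tested. No paired analysis was possible because values per sample were not in the table, so the spread between replicates, the level in IgG and the depth of each library limit every statement and were not measured here.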
